A study of Canis lupus familiaris with 7 samples.

Results

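The insulin-like growth factor (IGF) system was described in canine osteosarcoma (OSA), a malignant tumor of bone, through the 10 genes of its ligands (*IGF1*, *IGF2*), receptors (*IGF1R*, *IGF2R*) and binding proteins (*IGFBP2* to *IGFBP7*). They were taken by symbol from the 24580 genes listed. Of the 10, 9 matched exactly and *IGF2R* was listed under the double name CI-MPR/IGF2R. The dogs' tissue was taken at amputation or after euthanasia, and its RNA was sequenced in 4 samples of grossly non-malignant bone, N1, N3, N8 and N9, and in 3 of OSA tumor, T1, T3 and T10. The non-tumor bone lay beside tumors, and the labels give neither breed, age, sex nor treatment for any sample. Levels are in FPKM, fragments scaled to transcript length and to the number of mapped fragments, so that they can be compared between genes.

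IGF1 and IGF2 are secreted growth factors that act on cells through IGF1R, a receptor tyrosine kinase that signals through the PI3K, AKT and mTOR kinases and through RAS and the MAP kinases. IGF2R has no kinase and carries IGF2 to the lysosome for breakdown. The binding proteins hold the ligands outside the cell, prolong their life and limit or aid their access to the receptor, and bone matrix is a large store of the ligands and their binding proteins.

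The non-tumor samples were not alike. Across the 13507 genes tested, log2(FPKM + 1) of N1 had a correlation of 0.917 with T1 but of 0.572 to 0.670 with the other non-tumor samples, a description over genes and not over replicates. The labelled bone was checked with 10 osteoblast markers, whose summed level was 16388 FPKM in N1 and 191 to 2003 FPKM in the other non-tumor samples, against 2332 to 13357 FPKM in tumor (0 of 10 called by limma; *COL1A1* was listed at 0 in T1). N8 and N9 held 94363 and 62888 FPKM of 11 skeletal muscle markers, N3 held 1271 and N1 held 81.5, and the tumor samples held 5.65 to 13.8 (10 of 11 lower, with *MYH1* and *CKM* listed at 0 in N9 and *TNNT3* in T1). The other lists were 8 chondrocyte genes (2 of the 7 tested higher, sums of 12.2 to 486 FPKM in non-tumor and 134 to 941 in tumor, *COL2A1* at 0 in N8, *MATN3* at 0 in N8 and N9), 6 adipocyte genes (5 of the 5 tested lower, sums of 30.2 to 304 against 10.4 to 44.6, *LEP* at 0 in T3) and 9 erythroid genes (6 lower, 7.75 to 5114 against 3.67 to 83.0, with, among others, *HBM* at 0 in T1 and *SLC4A1* at 0 in T1 and T3). Of 8 granulocyte genes 6 were lower (697 to 65514 against 67.6 to 1991 FPKM, *ELA2* at 0 in T10), of 7 macrophage genes 0 passed (58.2 to 981 against 173 to 570), and of 8 endothelial genes 4 were lower (82.0 to 349 against 25.5 to 107). The fragments behind a given FPKM, relative to N1, ran from 0.544 in N8 to 1.43 in T10. The part that these cell type markers play in the results was not tested, and in bulk tissue fewer cells of a type and less RNA per cell cannot be told apart.

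Of the 10 IGF genes, 1 was called by limma, which asked for an at least 2-fold change and an unadjusted p under 0.05. This was *IGFBP3*, higher in tumor. Of all tested genes 6.86% were called, 3.28% as higher and 3.58% as lower. This even split depended on scaling and samples: 64.5% of the called genes were lower when all samples were given an equal FPKM sum, and 29.7% without T10. All 10 had a mean of at least 1 FPKM and so were tested. Their log2 fold changes were positive in 6 and negative in 4, with a median of 0.33, where 48.6% of all tested genes were positive and their median was -0.024. The median size of the change, without its sign, was 0.69 in the 10 genes and 0.51 in all tested genes. An adjusted p under 0.05 was reached by 0 of the 10 and by 0 of all 13507 genes, of which 927 had an unadjusted p under 0.05. Groups that did not overlap in the FPKM as listed were found in 1 of the 10, *IGFBP7*, against 5.85% of all tested genes. Each gene's mean log2 value was also compared by an exact permutation test, two-sided, over all 35 ways to divide the samples into 4 and 3. Its smallest possible p is 0.0571, so that it cannot reach 0.05. The labels call the adjacent bone matched to the tumors, and the numbers 1 and 3 occur in both groups, but they do not say which samples came from the same dog. The groups were compared without pairing, and each p-value measures the spread between these 7 samples only.

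**Figure D1:**
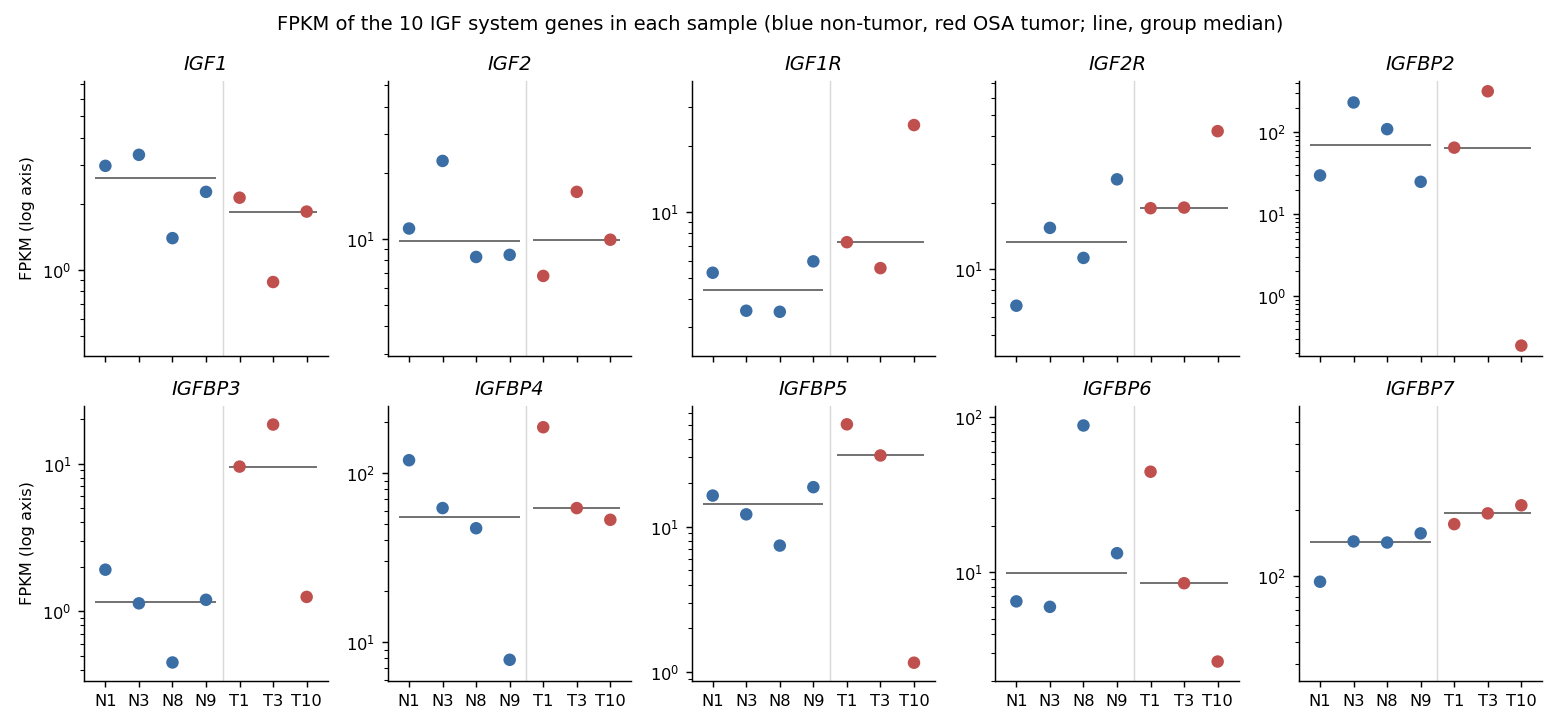
FPKM of the 10 IGF genes (log axes, each with its own range) in the 4 non-tumor (blue) and 3 OSA tumor samples (red), with a line at each group's median. *IGFBP7* is the gene in which every tumor point lies above every non-tumor point, and *IGFBP2* reaches from 0.248 FPKM in T10 to 318 FPKM in T3.

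The 2 ligands were at low to moderate levels in non-tumor and tumor samples alike. *IGF1*, the main mediator of growth hormone action on the skeleton, lies on chromosome 15 (CanFam3.1, 41203484 to 41275959). Its level was 2.98, 3.34, 1.40 and 2.27 FPKM in N1, N3, N8 and N9, and 2.13, 0.882 and 1.85 FPKM in T1, T3 and T10. The lowest value was in T3 and the highest in N3, and the groups overlapped. Tumor differed from non-tumor by a log2 fold change of -0.41 (SE 0.49), with an unadjusted p of 0.418 by limma and an exact permutation p of 0.229. Without T3 it was -0.19. *IGF2*, the growth factor that is most active in fetal growth, lies on chromosome 18 (46293985 to 46304805), in an interval that the table shares with the microRNA gene cfa-mir-483. It was at 11.2, 22.6, 8.28 and 8.47 FPKM in non-tumor and at 6.79, 16.4 and 9.92 FPKM in tumor, in the same order of samples. N3 and T3 were the highest sample of their group, and all tumor values lay inside or just below the non-tumor range. Its log2 fold change was -0.15 (SE 0.52, unadjusted p = 0.786 by limma, exact permutation p = 0.743), and it turned to 0.017 when the FPKM of each sample were rescaled to the same sum, a scaling that moved the median of all genes to 0.12. Within each of the 7 samples *IGF1* was below *IGF2*, at 0.0539 (T3) to 0.314 (T1) times its level.

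Both receptors had positive fold changes that did not pass the threshold, and T10 was the highest of all samples in each. *IGF1R* lies on chromosome 3 (41794629 to 42090208). Its level was 5.28, 3.55, 3.51 and 5.95 FPKM in N1, N3, N8 and N9, and 7.27, 5.54 and 24.8 FPKM in T1, T3 and T10. T1 and T10 were above all non-tumor samples, whereas T3 was below N9. The groups differed by a log2 fold change of 1.03 (SE 0.57, 95% interval -0.25 to 2.31, unadjusted p = 0.102 by limma, exact permutation p = 0.114), and it was 0.43 without T10. Of 8 other tested genes within 1 Mb of *IGF1R*, 1 was highest in T10. *IGF2R*, on chromosome 1 (49161459 to 49262315), was at 6.79, 15.3, 11.2 and 25.5 FPKM in non-tumor and at 18.8, 19.0 and 42.2 FPKM in tumor. T1 and T3 lay below N9, and N1 was the lowest sample. Its log2 fold change was 0.86 (SE 0.56, unadjusted p = 0.156 by limma, exact permutation p = 0.229). It was 0.57 without N1 and 0.48 without T10. *IGF1R* was below *IGF2R* in all 7 samples, at 0.231 (N3) to 0.778 (N1) times its level.

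*IGFBP3*, the main carrier of IGFs in blood, was the member with the largest fold change. It lies on chromosome 16 (1021225 to 1026392) and was at 1.91, 1.13, 0.449 and 1.19 FPKM in N1, N3, N8 and N9, and at 9.53, 18.4 and 1.25 FPKM in T1, T3 and T10. T1 and T3 were above all other samples, whereas T10 lay within the non-tumor range. The log2 fold change was 1.87 (SE 0.73, 95% interval 0.23 to 3.52), with an unadjusted p of 0.0299 and an adjusted p of 0.693 by limma and an exact permutation p of 0.114. The call did not hold when 1 sample was left out in 5 of the 7 ways: the log2 fold change was then 1.88 without N3 (unadjusted p = 0.0562 by limma), 1.69 without N8 (0.0791), 1.89 without N9 (0.0503), 1.65 without T1 (0.0953) and 1.21 without T3 (0.126). It held without N1 (2.03, unadjusted p = 0.0333 by limma) and without T10 (2.76, unadjusted p = 0.00127 by limma). The share of all tested genes called moved too, from 2.36% without N8 to 14.8% without N1, and was 13.7% with sample weights and 1.78% with the samples numbered 1 and 3 alone, compared within their number.

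*IGFBP5*, a binding protein that is abundant in bone matrix, shared the high values of T1 and T3. Its level was 16.3, 12.1, 7.41 and 18.7 FPKM in non-tumor, and 50.4, 30.8 and 1.16 FPKM in T1, T3 and T10. T1 and T3 were thus above, and T10 below, all 4 non-tumor samples. Over all samples the log2 fold change was 0.13 (SE 0.98, unadjusted p = 0.899 by limma, exact permutation p = 0.971), and without T10 it was 1.54 (unadjusted p = 0.0244 by limma), in a fit that called 3.14% of all genes. The direction turned without T1 (-0.75), without T3 (-0.40) and without N8 (-0.11). *IGFBP3* and *IGFBP5* were the members with T1 and T3 above the other 5 samples, an order seen in 3.08% of all tested genes and looked at after the values were seen.

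*IGFBP2*, another secreted carrier of IGFs, lies beside *IGFBP5* on chromosome 37 (23545856 to 23569367 and 23579850 to 23596146, with 10482 bases between them). Its level was 29.8, 232, 110 and 24.9 FPKM in N1, N3, N8 and N9, and 65.1, 318 and 0.248 FPKM in T1, T3 and T10. The extremes were both tumors, 1281-fold apart. The SD of its log2 values in tumor, 4.12, was larger than that of 99.7% of all tested genes. In T10, the sample with the highest relative depth, its level was at percentile 6.28 of the tested genes, whereas it was at percentiles 74.0 to 97.9 in the other samples. The log2 fold change of -1.18 (SE 1.65, unadjusted p = 0.491 by limma, exact permutation p = 0.686) turned to 1.11 without T10. T10 was also the lowest sample in 1 of the 6 other tested genes within 1 Mb, *SMARCAL1*, a DNA helicase (3.09 FPKM in T10 and 3.11 to 7.20 FPKM in the others).

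*IGFBP4*, *IGFBP6* and *IGFBP7* differed in how much they varied. *IGFBP4*, an inhibitor of IGF action that is cleaved by the protease *PAPPA*, lies on chromosome 9 (22170572 to 22181798) and was at 119, 62.0, 47.1 and 7.85 FPKM in non-tumor, and at 187, 62.0 and 52.9 FPKM in tumor. T1 and N1 were highest, the samples that also held the most osteoblast marker RNA, and N9 was lowest. Its log2 fold change was 1.02 (SE 0.87, unadjusted p = 0.272 by limma, exact permutation p = 0.4). It was 1.52 without N1 and 0.27 without N9. *IGFBP6*, which prefers *IGF2* as its ligand, lies on chromosome 27 (2063493 to 2067766) and was at 6.48, 5.98, 88.4 and 13.3 FPKM in non-tumor, and at 44.5, 8.49 and 2.65 FPKM in tumor. N8 and T1 stood above the rest, and T10 was the lowest sample. Its log2 fold change was -0.46 (SE 1.06, unadjusted p = 0.671 by limma, exact permutation p = 0.743), and it was 0.36 without N8 and 0.37 without T10.

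*IGFBP7*, a relative of the others that binds IGFs weakly, was the binding protein with the highest median level and the smallest SD of log2 values in both groups. It lies on chromosome 13 (49091144 to 49207360), in an interval shared with the RNA polymerase subunit gene *POLR2B*. It was at 94.3, 144, 142 and 156 FPKM in N1, N3, N8 and N9, and at 172, 193 and 210 FPKM in T1, T3 and T10. In the FPKM as listed, all 3 tumor samples were above all 4 non-tumor samples. This separation depended on scaling. By percentile of the tested genes T3 (96.6) lay below N3 (96.7). At an equal FPKM sum T1 would lie below N1, as their sums were 1.119e+06 and 5.396e+05 FPKM. The log2 fold change was 0.53 (SE 0.47, 95% interval -0.52 to 1.58), with an unadjusted p of 0.282 by limma, and the exact permutation p was 0.0571, the smallest it can be. Without N1 the log2 fold change was 0.37. *IGFBP7* was at percentiles 94.7 to 97.6 of the tested genes in all 7 samples, and only 4.20% of the genes had a smaller SD in tumor.

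**Figure D2:**
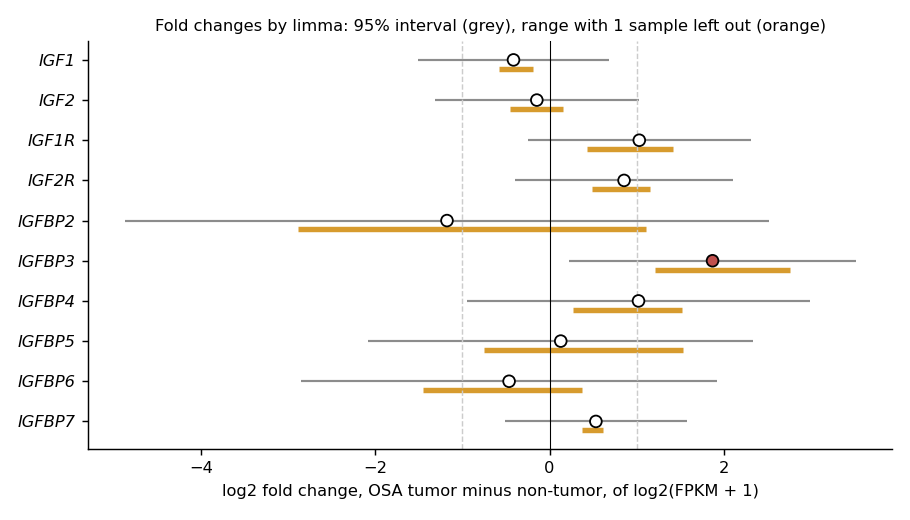
Log2 fold changes of the 10 IGF genes by limma (points, filled where called), with the 95% interval in grey and the range over the 7 fits with 1 sample left out in orange, and dashed lines at a fold change of 2 in either direction. *IGFBP3* is the filled point at 1.87, and the orange ranges of *IGF2*, *IGFBP2*, *IGFBP5* and *IGFBP6* cross 0.

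T10 was thus the highest of the 7 samples in 3 of the 10 genes (*IGF1R*, *IGF2R* and *IGFBP7*) and the lowest in 3 (*IGFBP2*, *IGFBP5* and *IGFBP6*). Among all tested genes T10 was the highest in 15.8% and the lowest in 16.8%. By median FPKM, *IGFBP7*, *IGFBP2* and *IGFBP4* were the leading members in that order in both groups (143, 69.6 and 54.6 FPKM in non-tumor; 193, 65.1 and 62.0 FPKM in tumor). *IGFBP2* and *IGFBP4* did not keep this order in every sample: *IGFBP2* was above *IGFBP4* in 3 of 4 non-tumor samples and in 1 of 3 tumors. At the lower end were *IGFBP3* (1.16 FPKM) and *IGF1* (2.62 FPKM) in non-tumor and *IGF1* (1.85 FPKM) in tumor.

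The leading binding protein differed between samples of the same group. The 6 binding proteins summed to 268, 457, 395 and 222 FPKM in N1, N3, N8 and N9, and to 528, 631 and 268 FPKM in T1, T3 and T10. Means were 336 ± 109 FPKM (SD, n = 4) and 476 ± 187 FPKM (SD, n = 3). The difference between the groups' mean log2 values of this sum was 0.47, with an exact permutation p of 0.286. It was 0.22 without T3, 0.29 without N9 and 0.84 without T10. *IGFBP4* led in N1 with 44.5% of the sum and in T1 with 35.3%, ahead of *IGFBP7* with 35.2% and 32.6%. *IGFBP2* led in N3 with 50.8% and in T3 with 50.4%, again ahead of *IGFBP7*. *IGFBP7* led in N8 with 36.0%, where *IGFBP2* had 27.7% and *IGFBP6* 22.4%, in N9 with 70.4% and in T10 with 78.3%. *IGFBP3* had a share of 0.403 ± 0.272% (SD, n = 4) in non-tumor and 1.73 ± 1.23% (SD, n = 3) in tumor (exact permutation p = 0.171). The samples that share a number were thus alike in make-up. The percentage of the sum that would have to move from one binding protein to another was 4.93 between N3 and T3 and 11.7 between N1 and T1, and it was 24.1 to 57.6 (median 41.1) in the other 19 pairs of samples. This measure was chosen after the shares were seen, and whether a shared number marks 1 dog is not stated. N1 and T1 were also alike over all tested genes, as given above, whereas N3 had its highest correlation with N8 (0.789) and not with T3 (0.742).

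**Figure D3:**
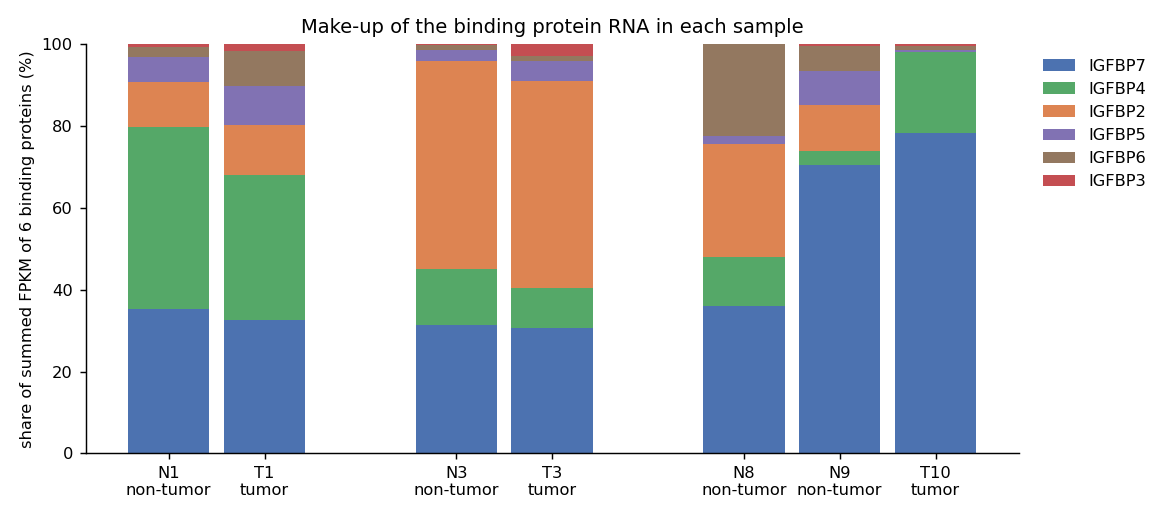
Share in percent of each of the 6 binding proteins in their summed FPKM, 1 bar per sample, with samples of the same number side by side. N1 and T1 are led by *IGFBP4* (44.5% and 35.3%), N3 and T3 by *IGFBP2* (50.8% and 50.4%), and N8, N9 and T10 by *IGFBP7* (36.0% to 78.3%).

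Levels of one gene relative to another within a sample do not depend on how the samples were scaled, apart from the pseudocount, and 5 such differences of log2(FPKM + 1) were compared. *IGF1R* relative to *INSR*, the insulin receptor with which it can form hybrid receptors, was 0.94, -0.037, -0.11 and -0.34 in N1, N3, N8 and N9, and 1.08, 1.08 and 2.52 in T1, T3 and T10. All tumor samples were above all non-tumor samples, with N1 next to T1 and T3. Means were 0.11 ± 0.57 (SD, n = 4) and 1.56 ± 0.83 (SD, n = 3), a difference of 1.45 (exact permutation p = 0.0571, adjusted over the 5 differences 0.143). Within the numbers 1 and 3 alone the mean difference was 0.63. *INSR* itself was at 2.27, 3.66, 3.87 and 7.78 FPKM in non-tumor and at 2.92, 2.09 and 3.50 FPKM in tumor, overlapping between groups. *IGFBP3* relative to *IGFBP5* was -2.58, -2.63, -2.54 and -3.16 in non-tumor, and -2.29, -0.71 and 0.055 in tumor. The groups did not overlap, although T1 lay close to N8. In T10 *IGFBP3*, at 1.25 FPKM, was within its non-tumor range, and *IGFBP5*, at 1.16 FPKM, was at its lowest level of the 7 samples. The difference of the means was 1.74 (-2.73 ± 0.29, SD, n = 4, against -0.98 ± 1.19, SD, n = 3; exact permutation p = 0.0571, adjusted 0.143), and within the numbers 1 and 3 it was 1.10. For both differences this p is the smallest the design allows. The other differences overlapped: *IGF1* relative to *IGF2* changed by -0.27 (exact permutation p = 0.686), *IGF1R* relative to *IGF2R* by 0.17 (exact permutation p = 0.743) and *IGFBP5* relative to *IGFBP4* by -0.89 (exact permutation p = 0.629), each with an adjusted p of 0.743.

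**Figure D4:**
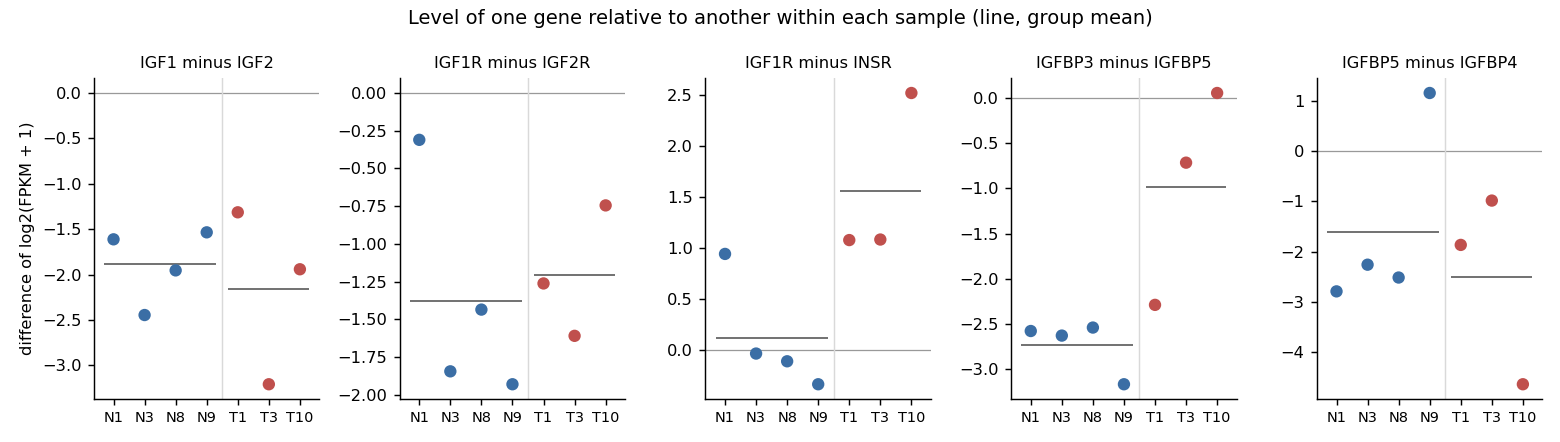
Differences of log2(FPKM + 1) between pairs of genes within each sample (blue non-tumor, red OSA tumor, line at the group mean, each panel with its own range). In the panels of *IGF1R* minus *INSR* and *IGFBP3* minus *IGFBP5* every tumor sample lies above every non-tumor sample, by 0.94 (N1) against 1.08 (T1) and by -2.54 (N8) against -2.29 (T1) at the nearest.

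Around these 10 genes, 6 lists of other IGF pathway genes held 62 symbols, of which 59 matched and 53 were tested. By limma 3 of the 53 passed (5.66%, against 6.86% of all tested genes), 1 higher and 2 lower. Of 12 proteases and partners of the binding proteins 8 were tested, with 1 higher, 0 lower and 7 not passing. All 8 fold changes were positive, with a median of 1.24. This count depends in part on the filter, which admits genes that are high in 1 group only. *PAPPA2* entered through T3, at 9.67 FPKM, with 0 to 0.312 FPKM in the others. *PAPPA*, *IGFALS*, *IGFBP1* and *IGFBPL1* fell below the filter. *IGFBPL1* had the lower mean in tumor (0.520 against 0.645 FPKM), the others the higher one. *PAPPA*, not tested, was at 0.145 to 0.440 FPKM in non-tumor and at 1.49, 0.210 and 3.36 FPKM in T1, T3 and T10. The gene that passed was *STC2*, stanniocalcin 2, an inhibitor of the protease *PAPPA*. It was at 0.427, 2.12, 0.630 and 0.646 FPKM in N1, N3, N8 and N9, and at 4.64, 5.79 and 6.55 FPKM in T1, T3 and T10. All tumor samples were above all non-tumor samples, with means of 5.66 ± 0.963 FPKM (SD, n = 3) and 0.957 ± 0.784 FPKM (SD, n = 4). This gave a log2 fold change of 1.83 (SE 0.49, unadjusted p = 0.00454 and adjusted p = 0.693 by limma, exact permutation p = 0.0571). It passed in each of the 7 fits with 1 sample left out, with log2 fold changes of 1.70 to 2.08.

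Insulin receptors and adaptors had 0 of 8 passing and a median of -0.23, and the member furthest from 0 was *GRB10*, an adaptor that dampens receptor signalling (-1.41, unadjusted p = 0.126 by limma). Without N3 it passed (-1.96, unadjusted p = 0.0394 by limma), whereas it was -0.92 without N8 and -0.87 without T10. The PI3K, AKT and mTOR list had 0 of 19 passing, with 15 of 19 negative and a median of -0.76. Its member furthest from 0 was *AKT2*, a kinase central to insulin action (-1.30, unadjusted p = 0.0520 by limma). It lay close to the threshold and passed in 5 of 18 alternatives, among them without N3 (-1.67, unadjusted p = 0.0157 by limma) and without T1 (-1.63, unadjusted p = 0.0357 by limma). Among RAS and MAP kinase genes 1 of 9 passed (median -0.41), *MAP2K2*, the kinase also known as MEK2, at -1.67 (SE 0.66, unadjusted p = 0.0308 by limma). In the growth hormone axis 1 of 6 passed (median -0.91), *STAT5B*, a transcription factor activated by the growth hormone receptor, at -1.24 (SE 0.47, unadjusted p = 0.0253 by limma), with groups that did not overlap (13.2, 16.3, 22.1 and 32.6 FPKM against 9.59, 7.57 and 6.67 FPKM). *GRB10*, *AKT2*, *MAP2K2* and *STAT5B* were all highest in N8 and N9, the samples that held most skeletal muscle marker RNA, at 143 and 112 FPKM for *GRB10*, 49.7 and 66.8 FPKM for *AKT2* and 60.3 and 40.0 FPKM for *MAP2K2*. The part of muscle RNA in these values was not tested. The calls of *MAP2K2* and *STAT5B* were lost without N8 (-1.36 and -1.19), without N9 (-1.56 and -1.01), without T3 (-1.63 and -1.21) and without T10 (-1.12 and -1.13). With the sample number as a fixed block both were lost as well (-0.49 and -0.72), and with a random block *MAP2K2* was lost (-1.28). *STAT5B* was also lost with the same FPKM sum (-1.06). Of the 3 *IGF2* mRNA binding proteins 0 passed (median 0.91). *IGF2BP1*, normally a fetal protein, was furthest from 0 at 2.39 (unadjusted p = 0.0538 by limma). It was at 45.2 FPKM in T3, which made up 89.7% of the tumor sum, at 4.92 in T10 and 0.282 in T1, at 2.29 in N3, and listed at 0 in N1, N8 and N9. The fold change rested on T3: it was 1.03 without T3 and 3.62 without T1 (unadjusted p = 0.00545 by limma). *IGF2BP1* passed in 9 of 18 alternatives, and with a pseudocount of 0.01 its value was 6.69.

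**Figure D5:**
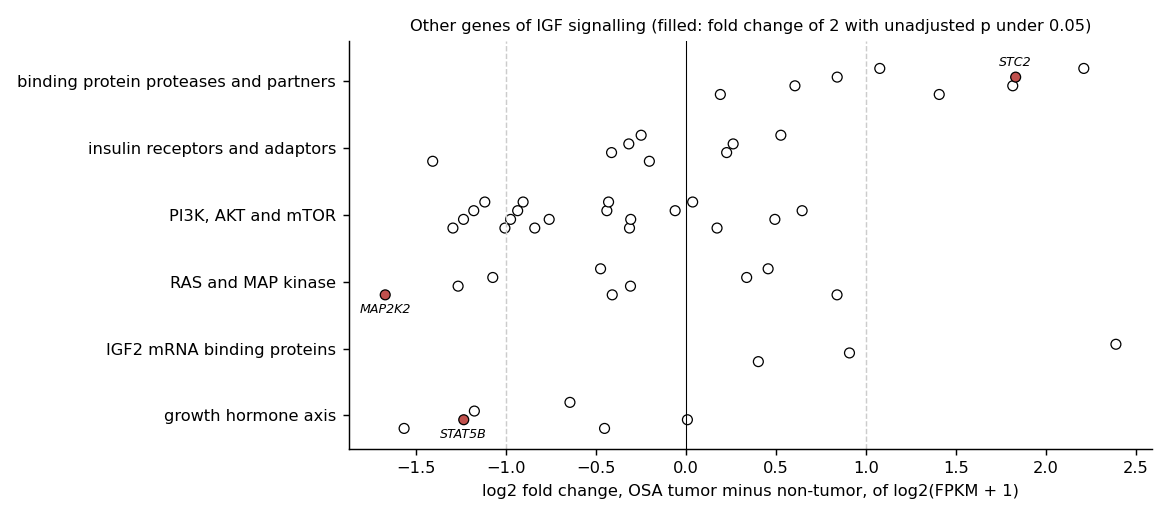
Log2 fold changes by limma of the 53 tested genes in 6 lists of IGF signalling, 1 point per gene, filled where the gene passed, with dashed lines at a fold change of 2 in either direction; heights within a list only spread the points. All 8 tested proteases and partners lie right of 0 with *STC2* at 1.83, and 15 of 19 PI3K, AKT and mTOR genes lie left of 0.

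For the 7 members whose log2 values spanned more than 2 units, the tested genes with the most similar profile over the 7 samples were named by the root mean square difference of the centred log2 values, as a description. *IGF1R* was closest to *SOCS5* (0.16 log2 units, where the root mean square of *IGF1R* itself was 0.79), *POLR3G* (0.18) and *TTBK2* (0.18). *SOCS5*, a suppressor of cytokine signalling, was at 6.34 to 11.5 FPKM in non-tumor, 13.2 in T1, 10.2 in T3 and 41.5 in T10. *IGF2R* was closest to *ZCCHC10* (0.22 of 0.73), *MX1* (0.23) and *LAMP2* (0.24), a membrane protein of the lysosome. *IGFBP3* was closest to *PDLIM4* (0.33 of 1.29), *NKX3-2* (0.43), a transcription factor of cartilage development, and *CA9* (0.45), a carbonic anhydrase known to be induced by low oxygen. *PDLIM4*, a protein of the actin cytoskeleton, was at 3.66 to 11.5 FPKM in non-tumor, 23.5 in T1, 43.1 in T3 and 5.64 in T10. *IGFBP4* was closest to *PFKP* (0.25 of 1.28), *TGFBI* (0.32) and *REEP4* (0.33). *IGFBP5* was closest to *ACVR1* (0.47 of 1.37), a receptor for bone morphogenetic proteins, which was at 9.28 to 17.1 FPKM in non-tumor, 32.1 in T1, 62.1 in T3 and 0.927 in T10. *ALDH1A3* (0.58) and *TLE2* (0.62) followed. For *IGFBP2* (*CXCL14*, 0.99 of 2.49; *U3*, 1.04; *CP*, 1.06) and *IGFBP6* (*NUPR1L*, 0.70 of 1.51; *STARD10*, 0.71; *SNORA76*, 0.78) the nearest genes were further away. *CXCL14*, a chemokine, shared with *IGFBP2* its lowest level in T10 (0.325 FPKM) and its highest in T3 (115 FPKM). *SNORA76* was listed at 25.0 FPKM in N8, at 14.0 FPKM in T1 and at 0 in the other samples.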

How the data were processed

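RNAseq reads of 4 non-tumor and 3 OSA tumor samples were trimmed by the authors with Trim Galore and aligned to CanFam3.1 with Tophat2 using the iGenomes build of the Ensembl annotation, and the deposited FPKM values per gene and sample were made with Cufflinks/Cuffdiff, with exact tool versions not given in the sources used here. All 7 columns were used and 0 per-sample columns were left unused. A second deposited table holds the authors' own comparison (group FPKM, log2 fold change, test statistic, p-value, q-value), which was not used, other than for the gene intervals, to whose starts 1 was added. No counts were analysed here. Depth was therefore read relative to N1 alone, from the spacing of each sample's lowest FPKM values, and limits low levels most in N8. Zeros were kept as listed and may be failed estimates.

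Values were taken as log2(FPKM + 1), a scale that understates changes of low genes, and the 13507 genes whose mean reached 1 FPKM were compared by limma 3.58.1 (R 4.3.3) with a mean-variance trend and no block (11073 genes were left out). A gene passed, or was called, where it changed at least 2-fold and its unadjusted p was under 0.05. Adjustment by Benjamini-Hochberg was over all tested genes. Exact permutation tests and figures were made in Python 3.11.15 (scipy 1.17.1, numpy 2.4.6, pandas 2.3.3, matplotlib 3.10.9).

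The 10 members, 6 pathway lists and 8 marker lists were chosen with earlier results of these data known. Some marker genes are counted but not reported here by name. Named were all members, each pathway gene that passed or, in a list with none, the gene with the largest change, and the 3 genes most like each member that spanned over 2 log2 units; others were named after their values were seen. Alternatives were pseudocounts of 0.1 and 0.01, no filter, a filter that asked for 1 FPKM in 3 or more samples, rescaling to the same sum, median ratio scaling, quantile normalization, no trend, sample weights, the sample number as a fixed or random replicate block, and each sample left out in turn.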

Additional observations from a re-analysis of the deposited data

Results flagged for a closer look

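Among the 16 sets of non-tumor values checked (the 10 IGF genes, the 5 within-sample differences and the summed binding protein level), 2 had a sample whose gap to the nearest other exceeded Dixon's 95% critical share of the whole range (0.858 and 0.866 of the range). Chance flags about 5% of such sets. Both were N9 and both involved *IGFBP5*. *IGFBP3* minus *IGFBP5* was -3.164 in N9 on the log2(FPKM + 1) scale and -2.63 to -2.54 in N1, N3 and N8. *IGFBP5* minus *IGFBP4* was 1.151 in N9 and -2.79 to -2.26 in N1, N3 and N8, so that N9 was the 1 sample in which *IGFBP5* was above *IGFBP4*, at 2.38 times its level. *IGFBP4* was at 7.85 FPKM in N9, its lowest level of the 7 samples, and *IGFBP5* at 18.7 FPKM, its highest level in non-tumor.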

How the results depend on the processing

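Of the 10 IGF genes, *IGF1*, *IGF1R*, *IGF2R*, *IGFBP3*, *IGFBP4* and *IGFBP7* kept the direction of their fold change in all 18 alternatives run. *STC2* kept its call in all 18. The number of genes passing, 926, became 1857 with sample weights and 319 to 1997 with 1 sample left out. The number of IGF genes passing, 1, became 2 with sample weights and 0 to 2 with 1 sample left out, where 0 was reached without N3, N8, N9, T1 or T3. With sample weights *IGF1R* passed as well (1.30, unadjusted p = 0.0429 by limma). The number of pathway genes passing, 3, became 5 with a pseudocount of 0.01, 5 without the filter, 5 with quantile normalization, 12 with sample weights and 1 to 10 with 1 sample left out. The direction turned for *IGF2* with the same FPKM sum (0.017; -0.45 to 0.16 with 1 sample left out), for *IGFBP5* with pseudocounts of 0.1 (-0.050) and 0.01 (-0.077) and with sample weights (-0.040; -0.75 to 1.54 with 1 sample left out), and, over the fits with 1 sample left out, for *IGFBP2* (-2.89 to 1.11), *IGFBP6* (-1.45 to 0.37), *IGF1* minus *IGF2* (-0.69 to 0.26), *IGF1R* minus *IGF2R* (-0.056 to 0.53) and *IGFBP5* minus *IGFBP4* (-1.65 to 0.18). *STAT5B* lost its call with the same FPKM sum (-1.06, unadjusted p = 0.151 by limma). Of pathway genes that did not pass over all samples, *AKT2* passed in 5 of 18 alternatives (pseudocount 0.01, no filter, sample weights, without N3, without T1), *IGF2BP1* in 9 and *GRB10* in 1 (without N3). The numbers 1 and 3 are the only ones shared by a non-tumor and a tumor sample. Deviations from the group means correlated at 0.422 between N1 and T1 and 0.211 between N3 and T3 (-0.27 to 0.14 in the other pairs of a non-tumor and a tumor sample), and with 2 pairs the numbers were not taken to pair the samples. With the number as a fixed replicate block, over N1, N3, T1 and T3 alone, 241 genes, 2 IGF genes (*IGFBP3* 2.52, *IGFBP5* 1.42) and 1 pathway gene (*STC2*) passed, the calls of *MAP2K2* (-0.49, unadjusted p = 0.478 by limma) and *STAT5B* (-0.72, unadjusted p = 0.224 by limma) were lost, *AKT2* was at -0.48, and the fold changes were 0.78 for *IGFBP2*, 1.52 for *IGFBP6* and 0.42 for *GRB10*, each the reverse of the value over all samples. In that fit *IGF1* was at -0.78, *IGF2* at -0.54, *IGF1R* at 0.46 and *IGFBP4* at 0.32. Within these numbers the mean difference was -0.36 for *IGF1R* minus *IGF2R* and 1.10 for *IGFBP5* minus *IGFBP4*, also reversed, and 0.63 for *IGF1R* minus *INSR* and 1.10 for *IGFBP3* minus *IGFBP5*. With a random replicate block *MAP2K2* lost its call (-1.28, unadjusted p = 0.0570 by limma), *IGFBP3* was at 2.06 and *IGFBP6* turned to 0.20. The cause of these changes was not tested. Without counts, no interval for counting error could be given, and low levels such as *IGFBP2* in T10 have the least precision.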
